A study of Mus musculus with 18 samples.

Results

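The let-7 and low-numbered microRNA genes are the mouse microRNA hairpin genes with the longest history of study, and 159 of them were measured among 19938 genes. They were chosen by name: symbols that start with Mirlet7, or with Mir and a number no higher than that of Mir223. Of these, 156 are hairpins and 3 are host genes (Mir17hg, Mir99ahg and Mir100hg), which carry hairpins in longer noncoding transcripts. Where a gene had more than 1 probe set, the one with the highest mean over the 18 arrays was used. The genes next to the number limit were Mir221 and Mir222 on the inside and Mir224 and Mir296 on the outside, with Comma-D means of 4.83 and 4.56 against 4.37 and 6.47 on the log2 scale. Another 13 probe sets hold a matching symbol together with another gene and were left out of the tests.

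RNA came from 6 groups of mouse mammary cells with 3 arrays each. Comma-D is an epithelial line from normal mouse mammary gland, labelled erbB2-negative and phospho-erbB2-negative, and it was grown in DMEM/F12 with 2% serum, insulin (10 ug/ml) and EGF (5 ng/ml). MMTV-neu cells are tumour cells in which the mouse mammary tumour virus promoter drives the neu (erbB2) oncogene; they are labelled cancer, positive for erbB2 and for its phosphorylated form, and they were grown in DMEM with 10% serum. Co-cultures of both lines at ratios written as 1:50 and 1:1 were grown in the Comma-D medium and split on a magnetic column by an antibody to erbB2. Both erbB2-negative fractions are labelled normal, the 1:1 erbB2-positive fraction is labelled cancer with phospho-erbB2, and the 1:50 erbB2-positive fraction is labelled redirected, erbB2-positive and phospho-erbB2-negative. The titles do not settle which line supplied the 50 parts, so the ratio is used only as a name. Medium and cell line cannot be told apart in any difference between MMTV-neu and the other groups. The labels do not say that arrays of a group came from separate cultures, so the p-values measure the spread between these arrays, which may be technical.

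A microRNA is cut from a hairpin in a longer transcript by Drosha and Dgcr8 and then by Dicer, and the short mature strand guides an Argonaute protein to messenger RNAs. The bases near its 5' end, called the seed, pair with the target, so microRNAs with one seed form a family. Many hairpins lie in clusters that are transcribed together, often inside an intron of a protein-coding host gene. In mammary epithelium, let-7 is known from differentiated cells, miR-200 from epithelial identity, and the miR-17 group from proliferation. The arrays carry probe sets annotated to hairpin genes and were hybridised with label made from total RNA. Whether the primary transcript, the hairpin or the mature strand gave the signal was not tested, so every value below is a probe set signal.

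The sequences of the Mir25 cluster and of hairpins that share its seeds are shown first. They are mature strands from RefSeq (build GRCm38.p6), 5' to 3', with the seed (bases 2 to 8) in capitals. The first 4 share the seed of miR-25, and all 4 hairpins were higher in MMTV-neu than in Comma-D. In that comparison 127 of all 156 hairpins and 56.4% of all genes were called higher (limma adjusted p under 0.05). The count of 4 is therefore no result about the seed. Mir25 lies on chromosome 5, Mir32 on chromosome 4, Mir92b on chromosome 3 and Mir92-2 on chromosome X, each on the minus strand.
miR-25-3p: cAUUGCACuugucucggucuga
miR-32-5p: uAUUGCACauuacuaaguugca
miR-92b-3p: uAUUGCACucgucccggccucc
miR-92a-3p (Mir92-2): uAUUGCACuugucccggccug

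The other seed of the Mir25 cluster is shared by 6 measured hairpins in 3 clusters. Mir93 and Mir106b lie beside Mir25, Mir17 and Mir20a lie on chromosome 14 (plus strand), and Mir20b and Mir106a lie on chromosome X (minus strand).
miR-93-5p: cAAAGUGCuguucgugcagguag
miR-106b-5p: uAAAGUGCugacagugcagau
miR-17-5p: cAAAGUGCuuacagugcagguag
miR-20a-5p: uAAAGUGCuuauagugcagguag
miR-20b-5p: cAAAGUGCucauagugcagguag
miR-106a-5p: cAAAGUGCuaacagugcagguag

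Mature strands were found for 144 of the 156 hairpins, and hairpin sequences for 137.

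The arrays themselves differed before any gene was considered. The standard deviation of the log2 values over all 35556 probe sets was 1.97 to 1.99 in Comma-D and 1.99 in the 1:50 erbB2-negative fraction. It was 1.85 to 1.96 in the 1:50 erbB2-positive fraction and 1.75 to 1.91 in the 1:1 erbB2-negative fraction. The 1:1 erbB2-positive fraction had 1.61 to 1.71 and MMTV-neu 1.51 to 1.55. Array medians over the same probe sets ran from 6.01 to 6.48. Replicate 1 of the 1:1 erbB2-negative fraction had the narrowest spread of its group (1.75). Basal epithelial markers were above the array median in every group, with a list mean of 10.2 in Comma-D and 7.38 to 7.81 in MMTV-neu. The luminal list lay at 8.13 to 8.34 in Comma-D and at 7.84 to 7.97 in MMTV-neu. These close means hide opposite changes: of the 5 luminal genes 2 rose and 3 fell between the lines, by -3.65 to 3.93. The leukocyte list lay at 5.45 to 5.52 in Comma-D and at 5.96 to 6.29 in MMTV-neu, and the endothelial list at 5.36 to 5.44 and 6.28 to 6.43. Of the leukocyte genes 4 rose and 1 fell between the lines, by -0.74 to 1.08. A MMTV-neu mean above the array median was found for 1 of 5 leukocyte genes and 2 of 5 endothelial genes. The part of these lists in the hairpin differences was not tested. Signal of the mouse Erbb2 probe set did not follow the label: its mean was 8.20 ± 0.109 (SD, n = 3) in Comma-D and 8.06 ± 0.141 (SD, n = 3) in MMTV-neu, and it differed by 0.076 between the fractions of the 1:1 co-culture (adjusted p 0.513).

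Hairpin signals were low. The median hairpin lay at 5.01 in Comma-D and 5.64 in MMTV-neu, below the array medians, and 34 of 156 hairpins had a Comma-D mean above the median of the Comma-D arrays. The number was 52 in MMTV-neu, 46 in the 1:1 erbB2-positive fraction, 40 in the 1:1 erbB2-negative fraction, 39 in the 1:50 erbB2-positive fraction and 33 in the 1:50 erbB2-negative fraction. In bulk RNA, fewer cells that express a hairpin and less of it per cell cannot be told apart.

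The first comparison asks how the tumour line differs from the normal line. Of the 159 genes, 129 were called higher in MMTV-neu and 8 lower at a limma adjusted p under 0.05. These counts stand against a background in which 86.8% of all genes were called, 56.4% higher and 30.4% lower, so the share of hairpins that was called is no result about them. The median difference was 0.57 over the 159 genes and 0.40 over all genes. Both depended on the scaling: after quantile normalization 57 of them were called higher and 22 lower, after centring on array medians 69 and 33, and after centring on 9 measured reference genes, whose own median fell by 1.79 on the log2 scale, 155 were higher and 2 lower.

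The difference varied with signal level. All genes were divided into 4 classes of equal size by their mean over the arrays. In the lowest class, 90 of the 159 had a median difference of 0.47 against 0.57 for all genes, and in the next class 38 had 1.00 against 0.92. In the class above, 22 had 1.48 against -0.01, and in the highest class 9 had 1.34 against -1.08. These medians are descriptions, and the arrays of the lines differ in spread as given above.

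**Figure D1:**
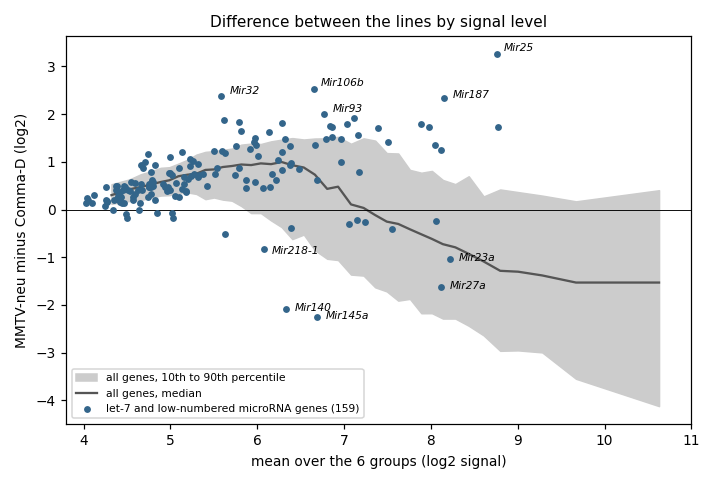
Difference between MMTV-neu and Comma-D (vertical axis, log2) against the mean over the 6 groups (horizontal axis, log2 signal) for the 159 genes (points), over the median (line) and 10th to 90th percentile (band) of all genes at that level. Mir25, Mir106b, Mir32, Mir93 and Mir187 are among the genes above the band, and Mir140 and Mir145a are among those below it.

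Some hairpins belong to tissues other than mammary epithelium. A list of 16 measured hairpins known from muscle, liver, nerve, blood and pancreas had Comma-D means between 4.04 and 6.45. Of these, 15 were called higher in MMTV-neu, with a median difference of 0.65. Beside this, 56.4% of all genes were called higher, and all genes had medians of 0.57 in the lowest class of level and 0.92 in the next. The range of the 16 ran from 0.07 for Mir1a-1, a muscle hairpin that was not called, to 1.12 for Mir124a-2, a neuronal one. Among the other 140 hairpins, 38 had a larger difference than 1.12. Mir212 (1.80) and Mir132 (1.17), known from neurons, were among these 38. The list thus does not hold every hairpin of other tissues, and the other 140 are not a mammary set. Comma-D means of the other 140 hairpins reached 9.26, so the sets are not alike in signal level.

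The Mir25 cluster held the largest difference among the clusters. Mir25, Mir93 and Mir106b lie within the span of Mcm7, a subunit of the helicase that opens DNA at replication origins, on the same strand at chr5:138165321-138165404, chr5:138165523-138165610 and chr5:138165737-138165818 (GRCm38.p6, minus strand). Their hairpins are given with the mature arms in capitals, because the probe sets are annotated to these stretches.
Mir25: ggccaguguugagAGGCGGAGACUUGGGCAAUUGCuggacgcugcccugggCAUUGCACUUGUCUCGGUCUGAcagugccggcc
Mir93: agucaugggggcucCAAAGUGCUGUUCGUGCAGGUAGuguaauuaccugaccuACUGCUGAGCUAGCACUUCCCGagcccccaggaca
Mir106b: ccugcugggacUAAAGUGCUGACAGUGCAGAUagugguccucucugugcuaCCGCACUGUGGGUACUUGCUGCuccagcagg

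Mir25, whose mature strand is known from human cancer cells to repress the cell death gene BIM, had log2 signals of 7.27, 6.998 and 6.77 in Comma-D and 9.97, 10.39 and 10.48 in MMTV-neu. Its 1:50 erbB2-negative arrays read 7.53, 7.34 and 7.37 and its 1:50 erbB2-positive arrays 9.50, 8.17 and 8.29. The 1:1 erbB2-negative arrays read 9.68, 9.04 and 8.81, and the 1:1 erbB2-positive arrays 10.18, 10.06 and 9.91. The order ran from Comma-D through the 1:50 fractions and the 1:1 fractions to MMTV-neu. Neighbours in that order overlapped at 2 of 5 steps, between the 1:50 erbB2-positive and 1:1 erbB2-negative fractions and between the 1:1 erbB2-positive fraction and MMTV-neu. Mir25 was higher in MMTV-neu than in Comma-D by 3.26 (SE 0.277, 9.60-fold, adjusted p 2.59e-08). The difference was 3.93 after quantile normalization and 4.77 after centring on the reference genes.

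Mir106b and Mir93, whose mature strands are known to repress the cell cycle inhibitor p21 in human cells, followed the same order of groups. Mir106b read 5.80, 5.65 and 5.25 in Comma-D, 5.65, 5.74 and 5.65 in the 1:50 erbB2-negative fraction and 6.72, 6.15 and 6.32 in the 1:50 erbB2-positive fraction. It read 7.27, 6.41 and 6.29 in the 1:1 erbB2-negative fraction, 7.68, 7.70 and 7.19 in the 1:1 erbB2-positive fraction and 7.90, 8.19 and 8.22 in MMTV-neu. The unmixed lines lay far apart, and the 1:50 erbB2-negative arrays lay among those of Comma-D. The rise in MMTV-neu was 2.53 (SE 0.224, adjusted p 3.97e-08). Mir93 had group means of 6.02 ± 0.078 in Comma-D, 6.06 ± 0.052 and 6.45 ± 0.208 in the 1:50 negative and positive fractions, 6.59 ± 0.336 and 7.48 ± 0.449 in the 1:1 negative and positive fractions, and 8.01 ± 0.272 in MMTV-neu (SD, n = 3 each). It was higher in MMTV-neu by 1.99 (SE 0.199, adjusted p 1.38e-07).

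The host gene did not rise with the hairpins as deposited. Mcm7 read 8.72, 8.9995 and 9.23 in Comma-D and 8.09, 8.21 and 8.71 in MMTV-neu, with arrays that nearly met, and it fell by 0.65 (SE 0.263, adjusted p 0.0296). Its direction depended on the scaling: it differed by 0.31 after quantile normalization (adjusted p 0.282) and by 0.86 after centring on the reference genes. After centring on array medians it differed by -1.08 (adjusted p 0.00266). A difference between its own arrays of up to 1 log2 unit within a group was larger than the fall of 0.65 as deposited. The 1:50 erbB2-negative fraction (8.98, 8.66 and 9.64) was such a group. The Mcm7 promoter is given because the 3 hairpins and Mcm7 are read from the same strand behind it. It covers 250 bases before and 50 after the start at chr5:138171834-138172133 (GRCm38.p6, minus strand), with matches to the E2F-like motif TTTNNCGC in capitals.
Mcm7 promoter: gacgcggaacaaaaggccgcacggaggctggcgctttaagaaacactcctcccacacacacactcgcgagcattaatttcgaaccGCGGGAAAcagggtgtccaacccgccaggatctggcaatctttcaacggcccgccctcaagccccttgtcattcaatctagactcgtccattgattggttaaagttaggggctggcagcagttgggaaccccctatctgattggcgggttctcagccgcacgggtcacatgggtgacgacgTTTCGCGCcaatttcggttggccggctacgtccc

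The motif was searched on both strands and was found 2 times, 1 time on each side of the start; 5.17% of 32851 promoters of this length hold it. The E-box CACGTG, searched likewise, was found 0 times, and 7.15% of the promoters hold it. With no E-box found, the motifs did not overlap, and a match is a description of the letters.

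Mir32, which has the seed of Mir25 but sits in Tmem245 on another chromosome, showed a similar profile from a lower level. It read 4.55, 4.42 and 4.72 in Comma-D and 6.28, 7.13 and 7.42 in MMTV-neu, and the lines did not overlap. The 1:50 erbB2-negative arrays (4.58, 4.32 and 4.61) lay with Comma-D, and the 1:1 erbB2-positive arrays (6.94, 7.17 and 5.74) lay with MMTV-neu apart from replicate 3. The rise in MMTV-neu was 2.38 (SE 0.33, adjusted p 4.36e-06). Its host Tmem245, a membrane protein gene, fell by 0.65 (SE 0.152, adjusted p 0.000746). Tmem245 differed by -0.20 after quantile normalization (adjusted p 0.247) and by -1.08 after centring on array medians (adjusted p 5.12e-05). After centring on the reference genes it differed by 0.86. Mir92b and Mir92-2, the remaining hairpins of that seed, rose by 1.51 and 1.20.

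**Figure D2:**
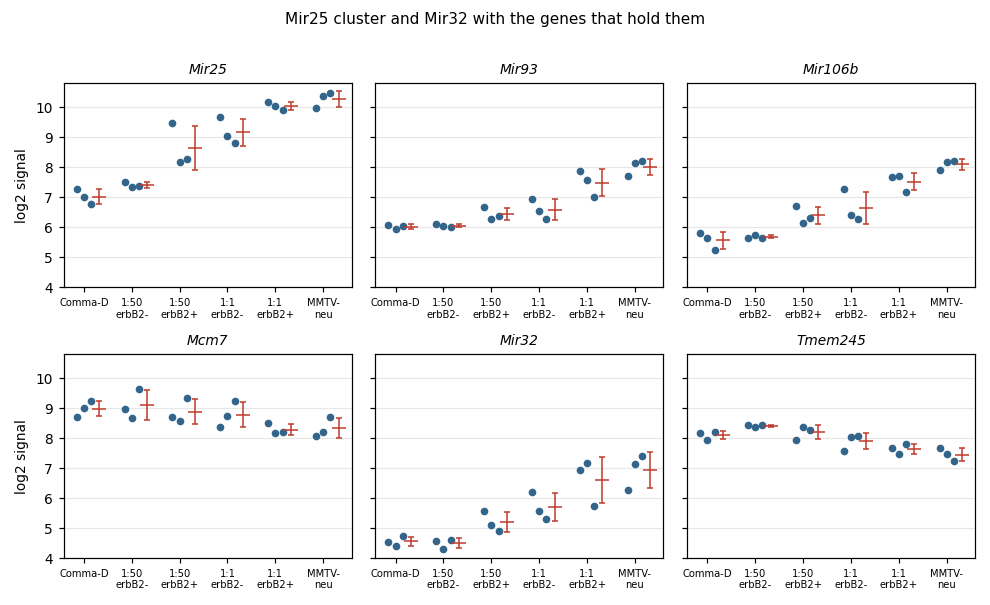
Log2 signal (vertical axes) of the Mir25 cluster, Mir32 and their host genes Mcm7 and Tmem245 in the 6 groups (horizontal axes); points are single arrays and red bars are means with SD (n = 3). The 4 hairpins were higher in MMTV-neu than in every Comma-D array. The 2 host genes were lower on average as deposited and after centring on array medians, and higher after centring on the reference genes.

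Clusters with the second seed did not share that size of difference. In the Mir17 cluster on chromosome 14, known as an oncogenic cluster, 5 of 6 measured genes including Mir17hg were called higher in MMTV-neu, with differences from 0.21 (Mir17, not called) to 0.53 (Mir18). In the Mir106a cluster on chromosome X, 3 of 4 were called, from 0.13 (Mir20b, not called) to 1.20 (Mir92-2). Over the 6 hairpins with the seed AAAGUGC the differences thus ran from 0.13 to 2.53. Of all genes, 56.4% were called higher and 30.4% lower in this comparison.

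Hairpins within 10000 bases of each other on a chromosome formed 31 clusters with 72 hairpins. In MMTV-neu against Comma-D, 0 of them held called hairpins of both directions, with 8 of the 137 called genes lower. In 3 clusters a hairpin that was called higher lay beside one with a difference below 0 that was not called: Mir16-1 (0.75) with Mir15a (-0.21), Mirlet7f-2 (0.49) with Mir98 (-0.17) and Mirlet7a-2 (0.43) with Mir100 (-0.0011). The Mir200b cluster (Mir200a and Mir200b) rose by 0.85 and 0.46, and the Mir200c cluster (Mir141 and Mir200c) by 0.76 and 1.49. Medians of all genes were 0.57 in the lowest class of signal level and 0.92 in the next. These microRNAs are known to repress the mesenchymal factors Zeb1 and Zeb2, which differed by -1.84 and -1.98 and passed the test. After centring on the reference genes Zeb1 and Zeb2 differed by -0.33 (adjusted p 0.119) and -0.47. A relation between these hairpins and Zeb1 or Zeb2 was not tested. In the Mir181 clusters, 5 of 6 hairpins rose, from 0.49 (Mir181a-1) to 1.79 (Mir181c), while Mir181b-1 differed by 0.26 without passing the test. All 6 measured Mir30 hairpins rose, from 0.38 to 1.04, beside 56.4% of all genes called higher. Mir196a-2, which lies among the Hoxc genes, rose by 1.83, and Mir10a differed by -0.18 (not called). Mir212 and Mir132, a pair known for induction by CREB in neurons, rose by 1.80 and 1.17.

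Single hairpins with large rises were Mir187, Mir185 and Mir210. Mir187 read 6.93, 7.27 and 6.92 in Comma-D and 9.20, 9.41 and 9.52 in MMTV-neu, a rise of 2.34 (SE 0.233, adjusted p 1.36e-07). Mir185 rose by 1.91. Mir210, the microRNA best known for induction by low oxygen, read 7.98, 8.04 and 7.91 against 9.63, 9.67 and 9.82 and rose by 1.73 (SE 0.198, adjusted p 5.63e-07). The arrays of the lines did not overlap for Mir187 or Mir210.

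The let-7 family has the seed GAGGUAG, shown in capitals for the 8 members that are plotted.
let-7i-5p: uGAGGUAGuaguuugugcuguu
let-7g-5p: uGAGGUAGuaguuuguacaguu
let-7e-5p: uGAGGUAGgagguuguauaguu
let-7d-5p: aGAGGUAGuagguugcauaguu
let-7a-5p: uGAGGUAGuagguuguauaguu
let-7f-5p: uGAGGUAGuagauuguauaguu
let-7c-5p: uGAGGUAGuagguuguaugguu
miR-98-5p: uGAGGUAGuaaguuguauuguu

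Of 10 measured let-7 hairpins (Mir98 included), 8 were called higher in MMTV-neu and 0 lower, with a median difference of 0.62. Beside this, 127 of all 156 hairpins were called higher and 8 lower, and 56.4% of all genes higher and 30.4% lower. The count is thus no result about the family. Mirlet7g read 5.05, 5.02 and 5.03 in Comma-D and 6.70, 7.04 and 6.95 in MMTV-neu, a rise of 1.87 (SE 0.133, adjusted p 3.94e-09). In the fractions it read 4.94, 4.93 and 5.02 (1:50 negative), 5.55, 5.32 and 5.25 (1:50 positive), 5.78, 5.38 and 5.28 (1:1 negative) and 6.11, 6.06 and 5.78 (1:1 positive). The 1:50 negative arrays overlapped Comma-D, and every array of the other fractions lay between the lines. Mirlet7i read 6.78, 6.71 and 6.57 in Comma-D and 8.01, 8.79 and 8.35 in MMTV-neu and rose by 1.70 (SE 0.207, adjusted p 1.05e-06). Mirlet7c-1 and Mir98 differed by -0.08 and -0.17 and were not called, although the Mir98 arrays of MMTV-neu (5.17, 5.16 and 4.92) all lay below those of Comma-D (5.35, 5.18 and 5.23).

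Genes around let-7 moved in both directions. Of 13 measured genes known as let-7 targets, 6 were higher and 7 lower in MMTV-neu, beside 56.4% of all genes higher and 30.4% lower. The differences were -3.07 for Ccnd2, a cyclin gene, -2.46 for Myc and -0.71 for the chromatin protein gene Hmga2, while Trim71, a ubiquitin ligase gene of early embryos, rose by 1.80. Lin28a, which blocks let-7 maturation, rose by 1.57. Of 26 measured genes of microRNA processing and action, 6 were higher and 12 lower, beside the same shares of all genes. Tut7 and Tut4, which add uridines to let-7 precursors, differed by -2.65 and -2.34. The Drosha partner Ddx17 differed by -2.72, the export factor Xpo5 by -2.05, Drosha by -1.19 and Dicer1 by -1.14, whereas Ago4 rose by 1.38. After centring on the reference genes Drosha, Dicer1 and Hmga2 turned to 0.32 (adjusted p 0.129), 0.38 and 0.80, and Hmga2 was also higher after quantile normalization (0.37). The mature strands were not measured apart from their hairpins, and no relation between hairpin and target was tested.

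**Figure D3:**
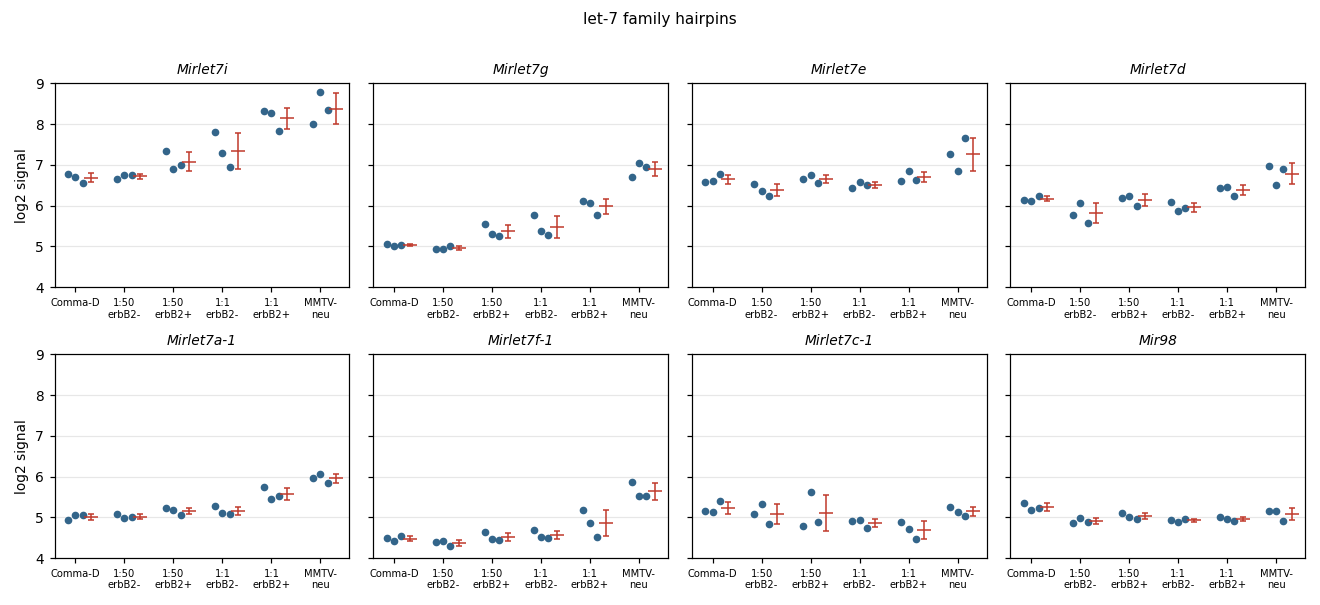
Log2 signal (vertical axes) of 8 let-7 family hairpins in the 6 groups (horizontal axes); points are arrays and red bars are means with SD (n = 3). Mirlet7i and Mirlet7g had their highest means in MMTV-neu, and Mirlet7c-1 and Mir98 stayed near 5 in all groups.

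Hairpins that share the seed ACCCGUA differed in direction between the lines. They lie in 3 clusters, beside Mirlet7e, Mirlet7c-1 and Mirlet7a-2.
miR-99b-5p: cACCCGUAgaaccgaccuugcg
miR-99a-5p: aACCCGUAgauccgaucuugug
miR-100-5p: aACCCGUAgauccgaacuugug

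Mir99b read 7.09, 7.15 and 6.93 in Comma-D and 8.72, 8.84 and 8.80 in MMTV-neu and rose by 1.73 (SE 0.182, adjusted p 2.32e-07). Mir99a read 6.03, 5.80 and 5.97 against 5.44, 5.50 and 5.29 and fell by 0.52 (SE 0.156, adjusted p 0.00515), and Mir100 differed by -0.001 (adjusted p 0.991). The lines did not overlap for Mir99b or Mir99a, and the fall of Mir99a turned to a rise of 0.99 after centring on the reference genes.

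The 8 hairpins called lower in MMTV-neu were Mir145a, Mir140, Mir27a, Mir23a, Mir218-1, Mir99a, Mir24-2 and Mir7-1, of which Mir145a and Mir140 were still called lower after centring on the reference genes. Mir145a, a hairpin of smooth muscle and myoepithelial cells, read 8.09, 8.11 and 8.39 in Comma-D and 5.67, 6.04 and 6.15 in MMTV-neu. Its fractions read 7.22, 6.47 and 6.54 (1:50 negative), 6.36, 6.57 and 6.34 (1:50 positive), 6.80, 6.75 and 6.86 (1:1 negative) and 6.39, 5.97 and 5.71 (1:1 positive). Every co-culture array lay below every Comma-D array, in the negative fractions too. Mir145a fell by 2.24 in MMTV-neu (SE 0.191, adjusted p 2.7e-08), and its cluster partner Mir143 differed by -0.31 (adjusted p 0.205). Basal epithelial markers moved with it between the lines (4 of 5 lower, median -3.37) but not between Comma-D and the 1:50 erbB2-positive fraction (0 lower, 1 higher, median 0.52). The mean of the fibroblast list lay at 8.10 to 8.13 in Comma-D, at 6.87 to 6.88 in MMTV-neu and at 6.56 to 7.19 in the co-culture fractions. Its 5 genes did not move together: 2 were higher and 3 lower in MMTV-neu than in Comma-D (-3.61 to 0.42). In the 1:50 erbB2-positive fraction 2 were lower than in Comma-D and 3 were not called (median -0.11). Of all genes, 30.4% were called lower between the lines and 4.54% in that fraction. The part of either list in the fall was not tested.

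Mir140, a hairpin known from cartilage, read 7.12, 7.09 and 7.33 in Comma-D and 5.08, 5.10 and 5.12 in MMTV-neu and fell by 2.08 (SE 0.33, adjusted p 1.78e-05). In the fractions it read 6.97, 7.20 and 6.92 (1:50 negative), 6.69, 8.09 and 7.49 (1:50 positive), 5.07, 6.59 and 6.53 (1:1 negative) and 5.06, 5.42 and 5.09 (1:1 positive). Both 1:50 fractions lay with Comma-D, the 1:1 positive fraction lay with MMTV-neu, and the 1:1 negative fraction was split, with replicate 1 at the MMTV-neu level. Its host Wwp2, a ubiquitin ligase gene, fell by 2.04 (SE 0.261). Mir218-1 read 6.41, 6.67 and 6.36 in Comma-D and 5.79, 5.60 and 5.55 in MMTV-neu and fell by 0.83 (SE 0.243, adjusted p 0.00415), and its host Slit2, an axon guidance factor, differed by -3.07. The other copy, Mir218-2, rose by 0.92. After quantile normalization Mir145a differed by -2.42 and Mir140 by -2.39. After centring on the reference genes they differed by -0.73 (adjusted p 0.0136) and -0.57 (adjusted p 0.0472), and Mir218-1 turned to 0.68.

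All 3 measured hairpins of the Mir23a cluster on chromosome 8 (plus strand) were called lower in MMTV-neu, beside 30.4% of all genes. Genes of high signal fell in general: the median difference of all genes was -0.79 near a level of 8.28 and -0.25 near 7.49. A fall particular to the cluster was not tested. Its mature strands have 3 different seeds.
miR-23a-3p: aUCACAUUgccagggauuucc
miR-27a-3p: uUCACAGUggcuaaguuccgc
miR-24-3p (Mir24-2): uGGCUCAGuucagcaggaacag

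Mir27a read 9.13, 9.11 and 9.53 in Comma-D and 7.36, 7.84 and 7.71 in MMTV-neu and fell by 1.62 (SE 0.228, adjusted p 5.05e-06). Mir23a read 9.13, 9.21 and 9.29 against 8.35, 7.73 and 8.46 and fell by 1.03 (SE 0.221, adjusted p 0.000344), and Mir24-2 read 8.02, 7.92 and 8.29 against 7.67, 7.61 and 7.75 and fell by 0.40 (SE 0.158, adjusted p 0.026). The share of all genes without overlap was not counted, and the lines did not overlap for any of these 3 hairpins. Their direction depended on the scaling: after quantile normalization Mir23a differed by -0.10 (adjusted p 0.73) and Mir24-2 by 0.17. After centring on the reference genes Mir23a differed by 0.48, Mir24-2 by 1.11 and Mir27a by -0.11 (adjusted p 0.657). The fall of Mir24-2 was also lost without Comma-D replicate 3 (-0.29) and without MMTV-neu replicate 1 (-0.40) or replicate 2 (-0.37).

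**Figure D4:**
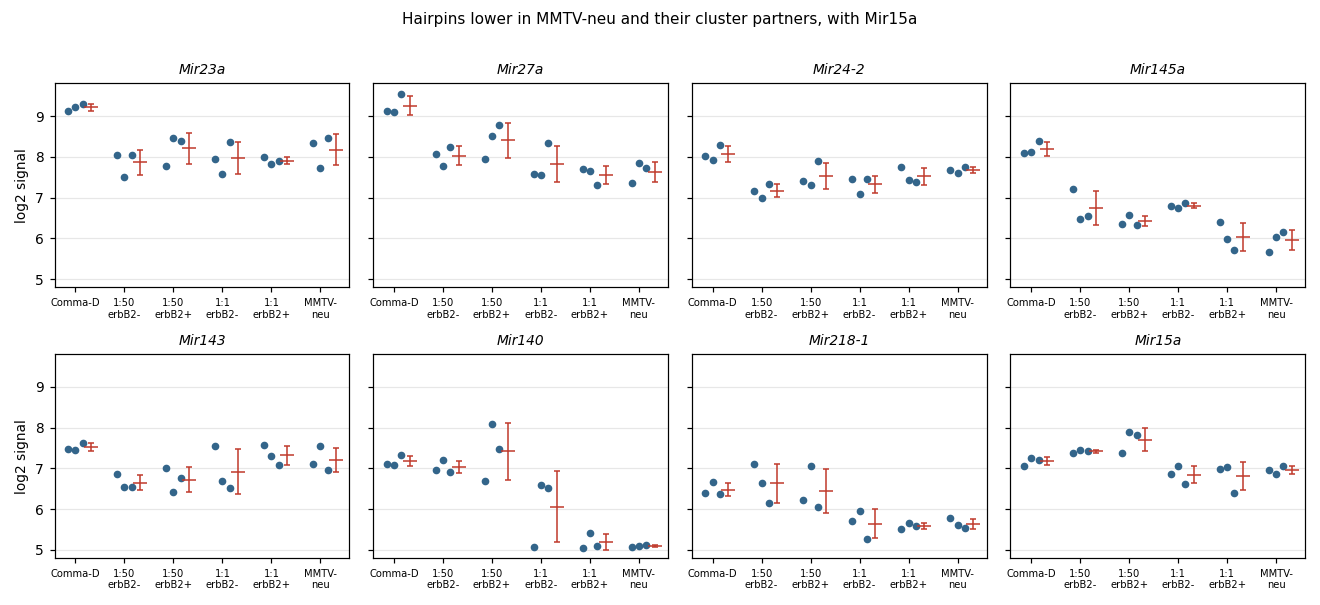
Log2 signal (vertical axes) of hairpins lower in MMTV-neu, of their partner Mir143 and of Mir15a in the 6 groups (horizontal axes); points are arrays and red bars are means with SD (n = 3). Mir145a and the Mir23a cluster were lower than Comma-D in every fraction on average, whereas Mir140 and Mir218-1 stayed at the Comma-D level in both 1:50 fractions.

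Hairpins were set beside the genes that hold them. By position in the RefSeq table, 51 pairs of a hairpin and a measured gene on the same strand were found, with 50 hairpins and 41 hosts. Both partners were called between the lines in 35 pairs. In 12 both were higher and in 2 both were lower (Mir140 with Wwp2 and Mir218-1 with Slit2), and in 21 the hairpin was higher and the host lower, with 0 of the reverse. These counts depended on the scaling: hairpin higher with host lower was found in 8 pairs after quantile normalization, with 3 of the reverse, in 18 after centring on array medians, with 2 of the reverse, and in 3 after centring on the reference genes, where both were higher in 37. The hairpins of these pairs had a median level of 5.56 and the hosts one of 7.82, in a range where all genes shifted by level as given above, and the pairs are a description. Examples of the 21 were Mirlet7g with Wdr82 (1.87 and -1.60), Mir99b with Spaca6 (1.73 and -1.41), Mir152 with Copz2 (1.61 and -2.32) and Mir185 with Tango2 (1.91 and -1.33). After centring on the reference genes Copz2 was still called lower (-0.81), and Wdr82 (-0.08), Spaca6 (0.10) and Tango2 (0.18) were not called.

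Base composition went with signal. Over the 137 hairpins with a sequence, the share of G and C bases correlated with the MMTV-neu mean (Pearson r 0.739, Spearman rho 0.747), with the Comma-D mean (r 0.633, rho 0.728) and with the difference between the lines (r 0.409, rho 0.529). These are descriptions across hairpins that share arrays, and hairpins are not independent replicates. Over 4 classes from low to high G and C content, the median difference was 0.35, 0.49, 0.61 and 1.33. Mir25, Mir106b and Mir93 have 63.1%, 57.3% and 55.7% G and C and lie in the highest class, while Mir32, at 38.6%, lies in the lowest class and differed by 2.38.

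**Figure D5:**
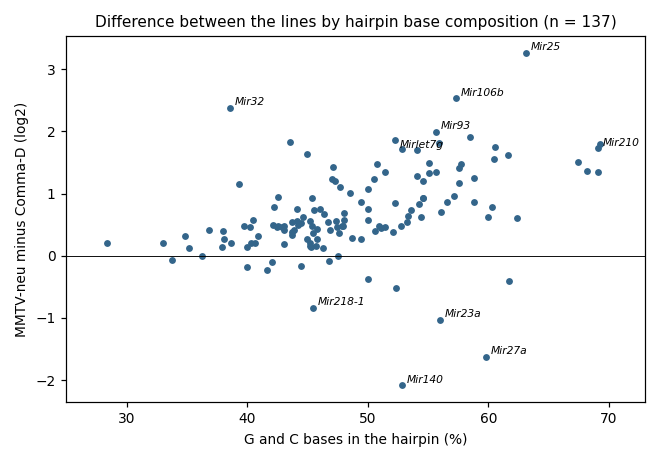
Difference between MMTV-neu and Comma-D (vertical axis, log2) against the percentage of G and C bases in the hairpin (horizontal axis) for the 137 hairpins with a RefSeq sequence. Hairpins of the highest of 4 classes had a median difference of 1.33, and Mir32 stood above the others of low G and C content.

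The labelled redirected cells, the 1:50 erbB2-positive fraction, were compared with each line. Against MMTV-neu, 6 of the 159 genes were higher and 135 lower, beside 83.4% of all genes called (25.8% higher, 57.6% lower). The split was 16 and 55 after quantile normalization and 15 and 71 after centring on array medians. Mir25 was lower by 1.63 (SE 0.277, adjusted p 5.12e-05), Mir106b by 1.71, Mir93 by 1.57 and Mir32 by 1.75, and Mir140 was higher by 2.32 (SE 0.33, adjusted p 9.08e-06). This comparison shares the MMTV-neu arrays with the first.

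Against Comma-D, 5 of the 159 genes were higher and 3 lower, beside 5.71% of all genes called (1.17% higher, 4.54% lower). The split was 1 and 2 after quantile normalization, 4 and 6 after centring on array medians and 1 and 1 after centring on the reference genes. The Mir25 cluster supplied 2 of the 5: Mir25 was higher by 1.64 (SE 0.277, adjusted p 0.00185) and Mir106b by 0.83 (SE 0.224, adjusted p 0.039), and Mir93 differed by 0.43 (adjusted p 0.219). All 3 arrays of the fraction lay above all 3 Comma-D arrays for each of the 3 hairpins, and those of replicate 1 were the highest. The share of all genes without overlap was not counted in any comparison, so this is a description. Mir25 kept its call without any single array and under each scaling tried, whereas that of Mir106b was lost without replicate 1 (0.66, adjusted p 0.219) or replicate 3 (0.86) of the fraction, without any of the Comma-D arrays (0.67 to 0.94), after quantile normalization (0.67) and after centring on the reference genes (1.09, adjusted p 0.124). The other 3 were Mir99b (0.81), Mir187 (0.83) and Mir200b (0.43). The call of Mir99b was lost without replicate 1 of the fraction (0.65) or Comma-D replicate 1 or 3 (0.82 and 0.75). Those of Mir187 and Mir200b were lost without any 1 of the Comma-D arrays, and also without replicate 1 (0.58) or 3 (0.89) of the fraction for Mir187 and without replicate 2 (0.30) or 3 (0.43) for Mir200b. All 3 were lost after quantile normalization and after centring on the reference genes.

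The 3 hairpins lower in the redirected cells than in Comma-D were Mir145a by -1.77 (SE 0.191, adjusted p 2.19e-05), Mir23a by -1.01 (SE 0.221, adjusted p 0.0123) and Mir27a by -0.85 (SE 0.228, adjusted p 0.0372). Mir24-2 differed by -0.54 (adjusted p 0.0561) and Mir143 by -0.79 (adjusted p 0.0508), both with arrays below every Comma-D array. The call of Mir145a held without any single array, while that of Mir23a was lost without replicate 1 of the fraction (-0.79) or Comma-D replicate 3 (-0.96). That of Mir27a was lost without replicate 1 of the fraction (-0.62) or without any 1 of the Comma-D arrays (-0.93 to -0.72). Both were lost after quantile normalization (-0.69 and -0.55) and after centring on the reference genes (-0.74 and -0.59). Mir145a was called under both (-1.42 and -1.51).

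The other 1:50 fraction was set against Comma-D in a comparison added after the values were seen. The 1:50 erbB2-negative fraction had 0 of the 159 higher and 4 lower, beside 1.68% of all genes called (0.592% higher, 1.08% lower). They were Mir145a by -1.45 (SE 0.191, adjusted p 0.000347), Mir23a by -1.35 (SE 0.221, adjusted p 0.00268), Mir27a by -1.23 (SE 0.228, adjusted p 0.00777) and Mir24-2 by -0.91 (SE 0.158, adjusted p 0.00447). Mir27a was no longer called without Comma-D replicate 3 (-1.09) or without replicate 2 of the fraction (-1.10). Mir25 differed by 0.40 (adjusted p 0.899), with all arrays of the fraction above those of Comma-D. Both 1:50 comparisons use the same Comma-D arrays.

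Between the 1:50 fractions themselves, 0 of the 159 genes passed the limma test, beside 0.01% of all genes, and 15 had an unadjusted p under 0.05. With array weights the count was 35. Mir25 was higher in the positive fraction by 1.24 (95% interval 0.65 to 1.82, adjusted p 0.199), with arrays that did not overlap, and Mir106b by 0.72 (adjusted p 0.262). The interval for Mir25 is that of the single gene, before adjustment.

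The 1:50 and 1:1 ratios were compared within each fraction. In the erbB2-positive fraction, 6 of the 159 were higher and 75 lower at 1:50, beside 71.4% of all genes called (27.4% higher, 44% lower). The split depended on the scaling: it was 25 and 40 after centring on array medians, 13 and 35 after quantile normalization, with a median difference of -0.01, and 1 and 151 after centring on the reference genes. The largest falls were Mir32 by -1.42 (SE 0.33), Mir25 by -1.40 (SE 0.277), Mir138-2 by -1.26 and Mir187 by -1.19. Those higher at 1:50 were Mir140 by 2.23 (SE 0.33, adjusted p 3.64e-05), Mir15a by 0.89, Mir218-1 by 0.86, Mir27a by 0.85, Mir100hg by 0.60 and Mir99a by 0.50. After centring on the reference genes, Mir140 kept its call (1.38), and Mir15a and Mir218-1 differed by 0.04 and 0.005, while Mir27a, Mir100hg and Mir99a turned to -0.002, -0.25 and -0.35.

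The Mir15a cluster, whose hairpins share the seed AGCAGCA, was divided in that comparison. Mir15a read 7.38, 7.90 and 7.82 at 1:50 and 6.99, 7.03 and 6.41 at 1:1 in the positive fraction, without overlap, and rose by 0.89 (SE 0.161, adjusted p 0.000192). Mir16-1, its neighbour on chromosome 14, fell by 0.30 (adjusted p 0.0248). Both hairpins are known to repress Bcl2 in human lymphocytes.

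In the erbB2-negative fraction, 4 of the 159 were higher and 21 lower at 1:50, beside 30.3% of all genes called (21.4% higher, 8.87% lower). The split was 2 and 2 after quantile normalization and 0 and 62 after centring on the reference genes. Mir25 was lower by 1.76 (SE 0.277, adjusted p 0.00158), Mir32 by 1.20 and Mir106b by 0.97, and Mir218-1 (0.99), Mir140 (0.97), Mir99a (0.63) and Mir15a (0.57) were higher. These counts rested on replicate 1 of the 1:1 erbB2-negative fraction, the array with the narrow spread: without it 3 were called, without replicate 3 of that fraction 37, and in a fit of these 2 groups alone 0. Without replicate 1, Mir140 differed by 0.47 (adjusted p 0.256) and Mir32 by -0.95 (adjusted p 0.105), and Mir140 also lost its call without any 1 of the 1:50 arrays (0.88 to 1.02).

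Between the fractions of the 1:1 co-culture, 63 of the 159 were higher and 3 lower in the positive fraction, beside 56.1% of all genes called (35.2% higher, 21% lower). The split was 34 and 8 after centring on array medians and 29 and 3 after quantile normalization. Mir25, Mir106b and Mir93 were higher by 0.88, 0.87 and 0.89 (adjusted p 0.0144, 0.00468 and 0.00208), Mir187 by 0.90 and Mir32 by 0.91. Mir140 (-0.87), Mir145a (-0.78) and Mir100hg (-0.67) were lower. Without replicate 1 of the negative fraction 84 were called and without its replicate 3, 32; the call of Mir25 was lost without that replicate 3 (0.69) or replicate 2 (0.81), or without replicate 1 of the positive fraction (0.81). Mir32 was not called without the same 3 arrays or without replicate 2 of the positive fraction (0.63 to 0.85). Mir140 was not called without replicate 2 or 3 of the negative fraction or replicate 1 or 3 of the positive fraction (-0.82 to -0.61).

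Whether the difference by ratio itself differed between the fractions was tested as an interaction. With limma 0 of the 159 passed, beside 2.75% of all genes called (2.45% higher, 0.301% lower), and 10 had an unadjusted p under 0.05. The largest value was that of Mir140, 1.26 (SE 0.466, adjusted p 0.139), and Mir25 had 0.36 (adjusted p 0.541). Without replicate 1 of the 1:1 erbB2-negative fraction 13 passed, and with array weights 68.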

How the data were processed

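RNA of 18 mouse samples had been measured on whole-transcript gene arrays, 3 in each of 6 groups taken from the sample titles. The authors deposited log2 values, 1 per probe set and array. RMA, R 3.1.2 and limma are named per the submitters' processing notes, and the order and settings of those steps are not stated there. Arrays have no read depth, so their number limits the precision. Of 35556 probe sets, 23410 are in the platform annotation, 21789 with 1 gene and 1621 with several; 21698 of the former matched the RefSeq table (GRCm38.p6) and 0 symbols changed. No filter on low values was applied. Group means of 19938 genes were fitted with limma 3.58.1 (lmFit and eBayes, R 4.3.3), with 12 residual degrees of freedom, and a gene was called at an adjusted p under 0.05 (two-sided, Benjamini-Hochberg, all 19938 genes). The fit was tested on simulated data. No batch is recorded in the labels.

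The genes and lists were chosen with earlier results of these data known. Values per array are given for listed clusters and families and for the 6 called genes with the largest differences each way whose arrays do not overlap; listed host, processing and target genes are given as counts, with up to 5 examples. Alternatives were other probe set choices, a filter on the lowest 40% of genes, limma's trend and robust priors, array weights, 3 other scalings, the replicate number as a block, fits restricted to the groups at hand, stricter thresholds and leaving out each array. Columns of other samples numbered 0. Sequences are RefSeq's, with none printed for chromosome 18, where Mir143 and Mir145a lie.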

Additional observations from a re-analysis of the deposited data

Results flagged for a closer look

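The 13 probe sets that share a matching symbol with another gene were used in no comparison above, and their signal cannot be given to either gene. In 10 of them all 3 MMTV-neu arrays lay above all 3 Comma-D arrays, and MMTV-neu was higher by at least 1 log2 unit in 2. Of all genes, 56.4% were called higher in that comparison. The share of all genes without overlap was not counted, so the 10 are no result about these probe sets. The probe set of Lincmd1 and Mir133b, a muscle transcript and its hairpin, was higher in MMTV-neu by 1.1667, from 5.27 to 6.44. The probe set of Mir207 and Dnaja1, a chaperone gene, was higher by 1.3905, from 9.16 to 10.55, and read 9.79 and 10.52 in the 1:50 and 1:1 erbB2-positive fractions. The largest difference of the 13 was that of Mir22hg with Mir22, which was 2.17 lower in MMTV-neu. None of these differences was tested.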

How the results depend on the processing

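The count of the 159 genes called, 137 for MMTV-neu against Comma-D, was 41 without the lowest 40% of genes, where 46 of the 159 were left, 79 after quantile normalization and 49 at a difference of at least 1 log2 unit. For the 1:50 erbB2-positive fraction against MMTV-neu, 141 became 39 without the lowest 40%, 71 after quantile normalization, 86 after centring on array medians and 33 at 1 log2 unit. Against Comma-D, 8 became 60 with array weights, 3 after quantile normalization, 2 after reference centring, 17 in a fit of the compared groups alone, 2 at an adjusted p under 0.01 and 3 at 1 log2 unit. For the ratios within the erbB2-positive fraction, 81 became 36 without the lowest 40%, 48 after quantile normalization, 152 after reference centring and 12 at 1 log2 unit. Within the erbB2-negative fraction, 25 became 71 with array weights, 4 after quantile normalization, 62 after reference centring, 0 with the compared groups alone, 3 at an adjusted p under 0.01 and 2 at 1 log2 unit. Between the 1:50 fractions, 0 became 35 with array weights. Between the 1:1 fractions, 66 became 35 without the lowest 40%, 108 with array weights, 32 after quantile normalization, 42 after centring on array medians, 152 after reference centring, 37 with the compared groups alone, 37 at an adjusted p under 0.01 and 0 at 1 log2 unit. The interaction count of 0 became 68 with array weights. For the 1:50 erbB2-negative fraction against Comma-D, 4 became 15 with array weights, 7 after centring on array medians and 11 with the compared groups alone. Centring on array medians split the calls between the lines into 69 higher and 33 lower.

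Leaving out 1 array at a time gave 130 to 138 for the lines, 133 to 139 and 2 to 10 for the 1:50 erbB2-positive fraction against MMTV-neu and Comma-D, 66 to 86 and 3 to 37 for the ratios within the positive and negative fractions, 0 to 0 and 32 to 84 between the 1:50 and the 1:1 fractions, 0 to 13 for the interaction and 3 to 4 for the 1:50 erbB2-negative fraction against Comma-D.

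With the replicate number as a block, the count for the 1:50 erbB2-positive fraction against Comma-D was 16 in place of 8, and the others were 137, 141, 86, 29, 0, 72, 0 and 5 in the order above. The labels do not say what the numbers stand for, so the block was not used above. Residuals of samples with equal numbers correlated between -0.26 and 0.85 (median 0.04, against -0.02 for other pairs), and 12 of 18 arrays correlated best with their own number, a hint from the data that some equal numbers deviate together; whether they pair the samples is not settled.

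Directions turned mainly under reference centring. Between the lines it gave 1.20 for Mir143, 0.68 for Mir218-1, 0.48 for Mir23a, 1.11 for Mir24-2 and 0.99 for Mir99a, and quantile normalization gave 0.17 for Mir24-2. Against MMTV-neu, the 1:50 erbB2-positive fraction had -0.78 for Mir145a, -0.51 for Mir15a, -0.45 for Mir218-1, -1.22 for Mir23a, -0.48 for Mir27a and -0.86 for Mir99a, and -0.59 for Mir23a after quantile normalization. Between ratios in the positive fraction it gave -0.25 for Mir100hg, -0.55 for Mir23a, -0.84 for Mir24-2, -0.0021 for Mir27a and -0.35 for Mir99a. Between the 1:1 fractions it gave 0.0069 for Mir100hg, 0.62 for Mir23a and 0.63 for Mir99a. The cause of these changes was not tested. Most hairpins lay below the array median, so the low signal limits what their differences can show.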
